A study of Mus musculus with 6 samples.

Results

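Pitx1, Tbx4, Tbx5, Tbx2, Tbx3, Tbx15, Tbx18, Prrx1, Prrx2 and Shox2 encode transcription factors of the early limb, 6 of the T-box family and 4 with a homeodomain, and they were followed here across 3 mouse embryonic fibroblast (MEF) lines. The 10 genes, of 27179 in the deposited counts, were chosen by name with their measured values in these lines already known. Their levels and ratios are therefore a description, with no test. The question put to them is which position of the embryo, such as forelimb, hindlimb or trunk, the RNA of each line recalls.

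The study made RNA-seq libraries from immortalized MEFs that lack circadian clock genes, with 2 RNA preparations per line and 6 libraries in all. Cry/Per_KO cells lack Cry1, Cry2, Per1 and Per2. Cry/Per/Nr1d_KO cells lack these genes and also Nr1d1 and Nr1d2. They are 1 clone, made from Cry/Per_KO cells by CRISPR/Cas9 from a lentivirus. Per/Nr1d_KO cells lack Per1, Per2, Nr1d1 and Nr1d2, keep both Cry genes, and come from an earlier study. All 3 lines thus lack Per1 and Per2, all carry the C57BL/6 label, and all were grown in serum without a treatment to about the same density. The region of the embryo that gave each line is not given in the sources used here, and a difference between lines is a difference between 3 cell lines as well as between 3 genotypes.

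For 4 libraries the genotype label and the deposited column of counts carry different names, Cry/Per_KO in one and Cry/Per/Nr1d_KO in the other. Genotype labels were followed, hence the wording of a pair labelled Cry/Per_KO and a pair labelled Cry/Per/Nr1d_KO. Exchanging the labels renames both pairs and changes no value. The mutated genes, Cry1, Cry2, Per1, Per2, Nr1d1 and Nr1d2, were still transcribed in every library, from 1004 normalized counts (Per2 in Per/Nr1d_KO) to 9337 (Nr1d1 in a library of the pair labelled Cry/Per_KO). All 6 had a higher mean in the pair labelled Cry/Per_KO than in the pair labelled Cry/Per/Nr1d_KO, and 3 of them (Cry1, Per1 and Nr1d1) passed the call made over all genes with edgeR. Cry1, a known target of repression by NR1D1 and NR1D2, had 5401 ± 109 normalized counts (SD, n = 2) in the pair labelled Cry/Per_KO, whose label keeps these repressors, and 1711 ± 17.8 in the pair labelled Cry/Per/Nr1d_KO, whose label lacks them. This direction goes against the genotype labels, so any direction between these pairs holds for the labels only. Library totals ran from 53764390 to 85927236 counts. Counts were scaled by the TMM method of edgeR to the mean library size and are called normalized counts. The floor for a gene without reads was set at 3 counts per library, or 2.37 to 3.80 normalized counts, and such floors and intervals cover counting error only. Both libraries of a line are RNA preparations of 1 line, so p-values measure the spread between preparations.

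T-box and homeodomain proteins bind DNA and switch on or repress other genes. In the embryo, Tbx5 is switched on where the forelimb forms, and Pitx1 and Tbx4 where the hindlimb forms. Prrx1 and Prrx2 mark the mesenchyme of both limb pairs, and of the face and body wall, before bone and tendon form. Cultured fibroblasts are known to keep part of the gene programme of the site they came from.

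Promoter sequences were taken from RefSeq (GRCm38.p6, the assembly of mm10), as 300 bases around an annotated start. They were found for 5 of the 10 genes, Prrx1, Prrx2, Shox2, Tbx18 and Tbx4. Pitx1, Tbx5, Tbx2, Tbx3 and Tbx15 had no entry in the set of promoters used here. Both strands were searched for 5 short motifs, and the share of 32851 mouse promoters of this length with the same letters is given for each. The E-box bound by CLOCK-BMAL1 was searched as CACGTG, which 7.15% of promoters hold. The core of the site of the ROR and NR1D receptors was searched as AGGTCA, held by 16.3% of promoters. For T-box proteins the core of their site was used, AGGTGT, with a share of 13.7%. The homeodomain motif was TAATTA, with a share of 5.29%, and the TATA box was TATAAA, found in 13.6% of promoters. None of the first 3 motifs was found in the 5 promoters. TAATTA was found in that of Prrx1, and TATAAA in those of Shox2 and Tbx4.

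The 3 promoters with a motif are shown 5′ to 3′ on the strand of the gene, since these genes span the range of the data: Prrx1 had the highest mean over the 6 libraries, Shox2 was abundant in 2 lines and almost silent in the other, and Tbx4 had at most 4 counts in any library. Capitals mark the motif, TAATTA in Prrx1, TATAAA in Shox2, and the same TATA letters read from the other strand in Tbx4.
Prrx1, chr1:163313601-163313900, minus strand: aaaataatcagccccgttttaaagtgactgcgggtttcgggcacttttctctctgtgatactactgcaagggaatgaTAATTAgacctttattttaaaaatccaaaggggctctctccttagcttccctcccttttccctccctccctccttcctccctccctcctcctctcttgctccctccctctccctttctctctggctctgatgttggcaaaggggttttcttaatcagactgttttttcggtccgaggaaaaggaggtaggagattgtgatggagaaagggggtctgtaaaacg
Shox2, chr3:66981722-66982021, minus strand: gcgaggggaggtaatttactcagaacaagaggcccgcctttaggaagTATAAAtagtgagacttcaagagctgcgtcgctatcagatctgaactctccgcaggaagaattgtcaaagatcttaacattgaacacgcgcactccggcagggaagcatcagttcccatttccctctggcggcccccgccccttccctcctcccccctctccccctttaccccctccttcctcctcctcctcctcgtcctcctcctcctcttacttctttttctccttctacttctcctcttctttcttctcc
Tbx4, chr11:85896515-85896814, plus strand: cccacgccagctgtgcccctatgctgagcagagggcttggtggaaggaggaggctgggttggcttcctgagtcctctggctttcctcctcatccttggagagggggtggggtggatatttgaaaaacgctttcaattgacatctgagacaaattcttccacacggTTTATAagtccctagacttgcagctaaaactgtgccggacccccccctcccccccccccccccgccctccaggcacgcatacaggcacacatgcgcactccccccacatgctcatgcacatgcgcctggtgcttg
The promoters of Prrx1 and Tbx4 shown here lie inside the annotated span of the gene, at a start other than the outermost one. A match is a match of letters and not a measured binding site.

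Of the hindlimb genes, Pitx1 (Entrez Gene 18740, chromosome 13 from 55825044 to 55836190) encodes the homeodomain factor that gives the hindlimb its character. It had 0 counts in both libraries of the pair labelled Cry/Per_KO, 591 and 630 normalized counts in the pair labelled Cry/Per/Nr1d_KO, and 2455 and 2111 in those of Per/Nr1d_KO. The 3 lines did not overlap, and Pitx1 ranged from undetected to abundant among them. The level was 3.74-fold higher in Per/Nr1d_KO than in the pair labelled Cry/Per/Nr1d_KO (counting interval 3.46 to 3.93). Set against a floor of 3 counts per library in the pair labelled Cry/Per_KO, it was at least 727-fold higher in Per/Nr1d_KO and at least 194-fold higher in the remaining pair. Of the Pitx1 exon bases, 10.3% also lie in exons of Gm47071 on the opposite strand or Gm28760 on the same strand. Of its 50-base stretches, 2.34% are found in 1 other gene, which may be among these. The counting of such reads is thus uncertain.

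Tbx4 (Entrez Gene 21387, chromosome 11 from 85886367 to 85916097), the T-box gene of the hindlimb that PITX1 is known to act on, had 0 counts in the 4 libraries labelled Cry/Per_KO and Cry/Per/Nr1d_KO. It had 2 and 4 counts in those of Per/Nr1d_KO, or 2.53 and 3.16 normalized counts. These values lie around the floor, 1 library below it and 1 above, in the line where Pitx1 was at its highest.

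Tbx5 (Entrez Gene 21388, chromosome 5 from 119796514 to 119885220), the T-box gene of the forelimb and of the heart, was detected in 1 line. It had 320 and 311 normalized counts in the pair labelled Cry/Per/Nr1d_KO and 0 counts in the other 4 libraries. This was at least 100.3-fold higher than in the pair labelled Cry/Per_KO and at least 102-fold higher than in Per/Nr1d_KO. Tbx5 and Pitx1 were thus both transcribed in the pair labelled Cry/Per/Nr1d_KO, only Pitx1 in Per/Nr1d_KO, and neither in the pair labelled Cry/Per_KO. These are bulk libraries, in which fewer cells of a type and less RNA per cell cannot be told apart, and RNA of both genes in 1 library does not show that 1 cell holds both.

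Tbx3 (Entrez Gene 21386, chromosome 5 from 119670534 to 119684724), a repressor expressed along the margins of both limb buds, lies 112 kb from Tbx5, with 0 annotated protein-coding genes between them. It had 3428 and 3617 normalized counts in the pair labelled Cry/Per_KO, 3111 and 3484 in the pair labelled Cry/Per/Nr1d_KO, and 1232 and 1184 in those of Per/Nr1d_KO. The first 2 lines overlapped, and the third lay below both. The log2 ratio of Per/Nr1d_KO was -1.45 (SD 0.12) against the pair labelled Cry/Per/Nr1d_KO and -1.54 (SD 0.068) against the pair labelled Cry/Per_KO, where the SD combines the spread of both lines (n = 2 each) and log2 ratios are of library-scaled counts (CPM) with a prior count of 2. Tbx3 therefore did not follow its neighbour Tbx5, and the log2 ratio of the pair labelled Cry/Per_KO to the one labelled Cry/Per/Nr1d_KO was 0.10 (SD 0.13), inside the spread.

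Tbx2 (Entrez Gene 21385, chromosome 11 from 85832615 to 85841948), the close relative of Tbx3 with a like place in the limb margins, lies 44.4 kb from Tbx4, again with 0 protein-coding genes between them. It had 7.79 and 15.7 normalized counts in the pair labelled Cry/Per_KO, 16.0 and 15.5 in the pair labelled Cry/Per/Nr1d_KO, and 6.34 and 7.10 in those of Per/Nr1d_KO. It was low in all 3 lines, as was its neighbour Tbx4. The level in the pair labelled Cry/Per/Nr1d_KO was 2.35-fold that in Per/Nr1d_KO, with a counting interval of 1.20 to 4.70 from 32 and 14 counts.

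**Figure D1:**
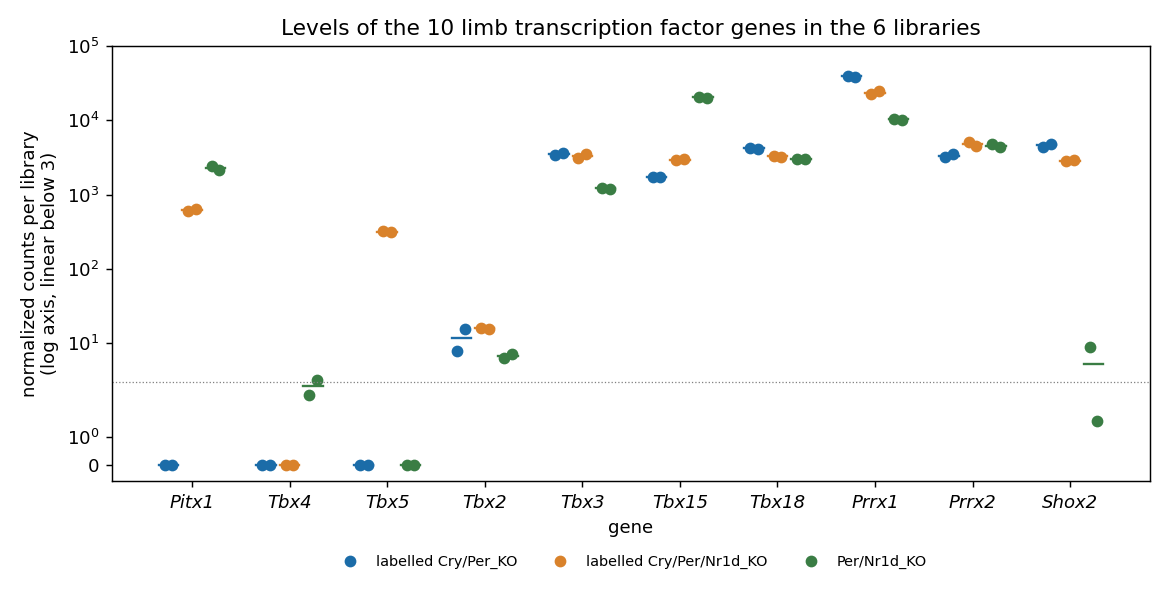
Normalized counts of the 10 genes (vertical axis, logarithmic above 3 and linear below) by gene, where each dot is 1 of the 6 libraries, short lines are line means and the dotted line stands near the floor of 3 counts. Pitx1 and Tbx5 had 0 counts in both libraries of the pair labelled Cry/Per_KO, Shox2 was at 8.87 and 1.58 in Per/Nr1d_KO, and Prrx1 was at 10013 or more in every library.

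Tbx15 (Entrez Gene 21384, chromosome 3 from 99240348 to 99354260), known from the mesenchyme of the limb, trunk dermis and head, had the highest level of the 6 T-box genes in Per/Nr1d_KO. The pair labelled Cry/Per_KO held 1712 and 1723 normalized counts, the pair labelled Cry/Per/Nr1d_KO 2895 and 2999, and those of Per/Nr1d_KO 20457 and 20134. All 3 lines were apart. Per/Nr1d_KO was 6.89-fold above the pair labelled Cry/Per/Nr1d_KO (log2 ratio 2.78, SD 0.039) and 11.8-fold above the pair labelled Cry/Per_KO (log2 ratio 3.56, SD 0.018). Between the other two lines the log2 ratio was -0.78 (SD 0.036), and the 577 genes tested on chromosome 3 had a median log2 fold change of -0.65 in that comparison. With the chromosome median subtracted, this log2 ratio became -0.13. Those of Per/Nr1d_KO became 2.55 against the pair labelled Cry/Per/Nr1d_KO and 2.68 against the pair labelled Cry/Per_KO. The part of the whole chromosome in these differences was not tested.

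Tbx18 (Entrez Gene 76365, chromosome 9 from 87702800 to 87731260), which acts in somite, heart and limb mesenchyme, varied little between the lines. It had 4265 and 4118 normalized counts in the pair labelled Cry/Per_KO, 3332 and 3250 in the pair labelled Cry/Per/Nr1d_KO, and 3003 and 2967 in those of Per/Nr1d_KO. The lines did not overlap, but the line means lay within 0.49 on the log2 scale. Its log2 ratios were 0.35 (pair labelled Cry/Per_KO against the pair labelled Cry/Per/Nr1d_KO), -0.14 (Per/Nr1d_KO against the latter) and -0.49 (Per/Nr1d_KO against the former). The medians of the 657 genes tested on chromosome 9 were 0.38, -0.46 and -0.84 in the same comparisons, and with these subtracted the log2 ratios became -0.028, 0.32 and 0.35, so the direction of each depends on that step. Of the Tbx18 exon bases, 20.6% also lie in exons of D030062O11Rik on the opposite strand.

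Prrx1 (Entrez Gene 18933, chromosome 1 from 163245119 to 163315145), the classical marker of limb bud mesenchyme, was abundant in every library. It had 39510 and 38461 normalized counts in the pair labelled Cry/Per_KO, 22337 and 24556 in the pair labelled Cry/Per/Nr1d_KO, and 10533 and 10013 in those of Per/Nr1d_KO. The 3 lines stood apart in that order. Per/Nr1d_KO was lower than the pair labelled Cry/Per_KO by 3.79-fold (log2 ratio -1.92, SD 0.058) and lower than the pair labelled Cry/Per/Nr1d_KO by 2.28-fold (log2 ratio -1.19, SD 0.11). The medians of the genes tested on chromosome 1 were 0.26 and 0.28 in these comparisons, on the other side of 0.

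Prrx2 (Entrez Gene 20204, chromosome 2 from 30845064 to 30881251), the paralogue of Prrx1 that shares its roles in limb and face, was nearly even. It had 3232 and 3468 normalized counts in the pair labelled Cry/Per_KO, 5028 and 4528 in the pair labelled Cry/Per/Nr1d_KO, and 4772 and 4318 in those of Per/Nr1d_KO. The pair labelled Cry/Per_KO lay below the rest, which overlapped. The log2 ratio of Per/Nr1d_KO to the pair labelled Cry/Per/Nr1d_KO was -0.072 (SD 0.15), and that of the pair labelled Cry/Per_KO to the pair labelled Cry/Per/Nr1d_KO was -0.51 (SD 0.13). Prrx1 and Prrx2 thus did not keep a fixed ratio across the lines.

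Shox2 (Entrez Gene 20429, chromosome 3 from 66971723 to 66981771), whose promoter is shown above and which is needed for the upper segment of the limb, had 4316 and 4832 normalized counts in the pair labelled Cry/Per_KO. It had 2815 and 2903 in the pair labelled Cry/Per/Nr1d_KO, and 8.87 and 1.58 in those of Per/Nr1d_KO, from 7 and 2 counts. All lines were apart, and Shox2 was close to silent in Per/Nr1d_KO, the line in which Pitx1 and Tbx15 were highest. The pair labelled Cry/Per/Nr1d_KO was 547-fold above Per/Nr1d_KO (counting interval 343 to 1427), and the pair labelled Cry/Per_KO 875-fold (552 to 2294). These folds depend on which Per/Nr1d_KO library is used, which the counting interval does not cover. The log2 ratio of -8.84 against the pair labelled Cry/Per/Nr1d_KO became -9.68 without replicate 1 and -8.03 without replicate 2 of Per/Nr1d_KO, and that of -9.52 against the pair labelled Cry/Per_KO became -10.35 and -8.70. The log2 ratio of the pair labelled Cry/Per_KO to the one labelled Cry/Per/Nr1d_KO was 0.68 (SD 0.12), while the genes tested on chromosome 3 had a median of -0.65. With the chromosome median subtracted, this ratio became 1.32. Those of Per/Nr1d_KO became -9.08 against the pair labelled Cry/Per/Nr1d_KO and -10.4 against the pair labelled Cry/Per_KO. Shox2 shares 4.62% of its exon bases with Rsrc1 on the opposite strand.

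**Figure D2:**
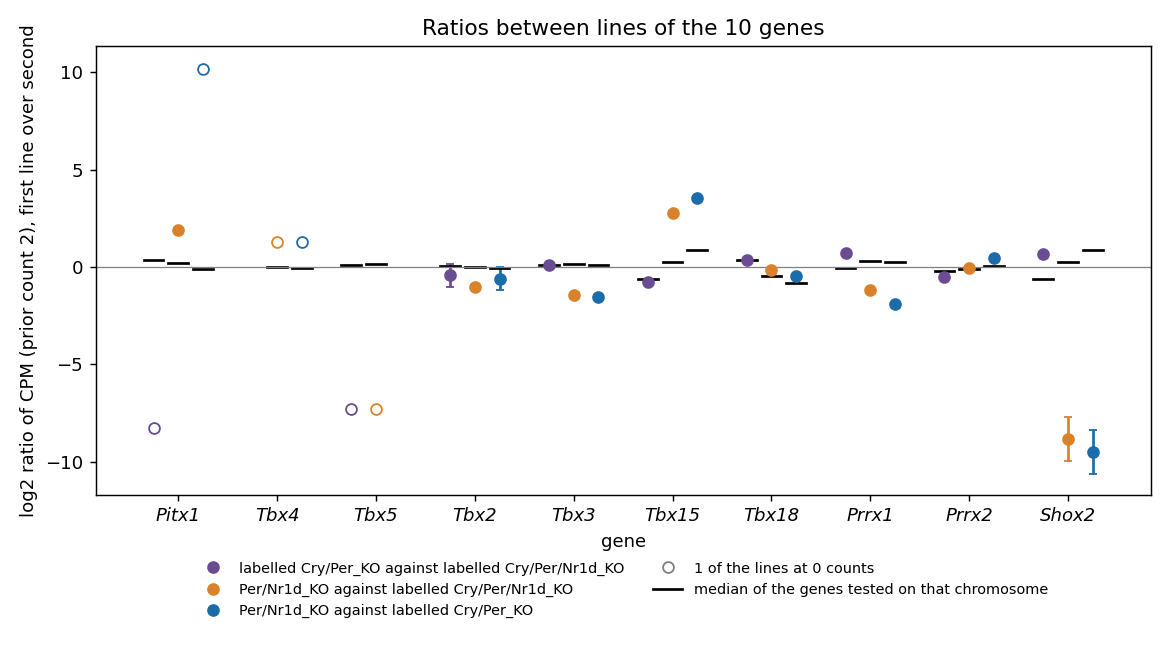
Log2 ratio of CPM (prior count 2) between lines for each of the 10 genes, first line over second, in the 3 comparisons, with error bars for the combined SD of both lines (n = 2 each). Open symbols have a line at 0 counts, so their height depends on the prior count, and black lines give the median of the genes tested on the same chromosome, from which Tbx15 (3.56 against 0.88) and Shox2 (-9.52 against 0.88) stood furthest among the genes detected in both lines.

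Levels of different genes were compared per kilobase (kb) of exon. The length was that of all exons annotated for a gene in GENCODE, 11.1 kb for Prrx1 and 1.96 kb for Prrx2. Which transcript forms these cells make was not measured, so the orders, sums and shares below depend on these lengths. In the pair labelled Cry/Per_KO the order was Prrx1 (3523 ± 67.0 normalized counts per kb, SD, n = 2), Prrx2 (1708 ± 85.1), Shox2 (1381 ± 110.2), Tbx18 (888 ± 22.0), Tbx3 (532 ± 20.2) and Tbx15 (458 ± 2.17), with Tbx2 at 3.24 and the remaining 3 genes at 0. No neighbours among those detected in this order overlapped between libraries. In the pair labelled Cry/Per/Nr1d_KO, Prrx2 (2436 ± 180.3) stood above Prrx1 (2119 ± 142), followed by Shox2, Tbx15, Tbx18, Tbx3 and Pitx1 (864, 786, 698, 498 and 230 normalized counts per kb) and by Tbx5 (67.4 ± 1.31). In Per/Nr1d_KO the order opened with Tbx15 (5416.5 ± 61.1), followed by Prrx2 (2318 ± 164), Prrx1 (928 ± 33.2) and Pitx1 (860 ± 91.5). The last 2 of these overlapped, as did Tbx2 with Shox2 and Shox2 with Tbx4 at the low end of this line.

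By these lengths, the gene in first place differed between the 3 lines. Before division by length, Prrx1 (mean of 23446 normalized counts) stood above Prrx2 (4778) in the pair labelled Cry/Per/Nr1d_KO. Summed over the 10 genes, a library held between 7677 and 10597 normalized counts per kb. Prrx1 took 42.5% and 40.5% of this sum in the pair labelled Cry/Per_KO, 26.3% and 28.7% in the pair labelled Cry/Per/Nr1d_KO, and 8.98% and 8.97% in those of Per/Nr1d_KO. Tbx15 took 51.5% and 53.3% in Per/Nr1d_KO. The 6 T-box genes together held 1880 and 1883 normalized counts per kb in the pair labelled Cry/Per_KO, 2021 and 2086 in the pair labelled Cry/Per/Nr1d_KO, and 6285 and 6184 in Per/Nr1d_KO. For the 4 homeobox genes the sums were 6522 and 6703, 5655 and 5642, and 4312 and 3902 in the same order, so the T-box sum was above the homeobox sum only in Per/Nr1d_KO.

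**Figure D3:**
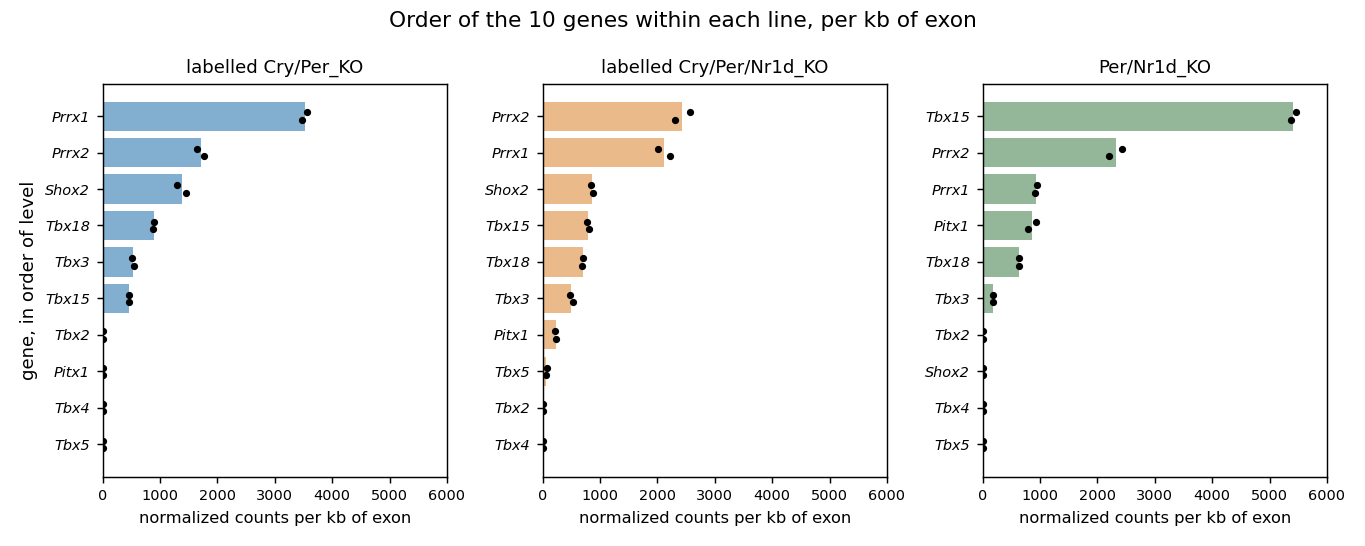
Levels of the 10 genes in order within each line, as normalized counts per kb of exon on a linear axis from 0, with bars for line means and dots for the 2 libraries. Prrx1 leads in the pair labelled Cry/Per_KO (3523), Prrx2 in the pair labelled Cry/Per/Nr1d_KO (2436) and Tbx15 in Per/Nr1d_KO (5416.5).

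To set these values beside the rest of the transcriptome, the 11934 of 27179 genes whose mean reached 100 normalized counts were fitted together with edgeR's quasi-likelihood test, and a gene was called where the Benjamini-Hochberg adjusted p was below 0.05 with a log2 fold change beyond 0.81 in either direction. Of the 10 members, 8 passed this filter, and Tbx2 and Tbx4 did not. Tbx5, with a mean of 105 normalized counts, passed only through the line in which it was transcribed. Between the pair labelled Cry/Per_KO and the pair labelled Cry/Per/Nr1d_KO, 2 members met the call, both lower in the former, where 16.8% of all genes tested were called (7.86% higher and 8.95% lower). Between Per/Nr1d_KO and the pair labelled Cry/Per/Nr1d_KO, 6 did, 2 higher and 4 lower, where 20.7% of all genes were called (11.3% higher and 9.35% lower). Between Per/Nr1d_KO and the pair labelled Cry/Per_KO, 5 did, 2 higher and 3 lower, where 29.0% of all genes were called (15.2% higher and 13.8% lower). Since the members were chosen on these contrasts, nothing is read from these counts. The last 2 comparisons share the Per/Nr1d_KO libraries, and each other pair of comparisons shares a line too.

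The profile of a gene over the 6 libraries was compared with that of every gene tested, as the root mean square (RMS) difference of log2 CPM after centring each gene. This was done for the 3 members with the widest range of line means, Pitx1, Shox2 and Tbx5. Among the nearest to Pitx1 were Megf6 (RMS 0.42) and Hand2, a factor of the posterior limb margin (RMS 0.44). Hand2 had 0 counts in both libraries of the pair labelled Cry/Per_KO, 391 and 445 normalized counts in the pair labelled Cry/Per/Nr1d_KO, and 1185 and 978 in Per/Nr1d_KO.

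The nearest to Shox2 were Pou3f3 (RMS 0.26), Slc6a15 (RMS 0.41) and Lama4, which encodes a laminin chain (RMS 0.49). Pou3f3, a POU domain factor, had 1984 and 2071 normalized counts in the pair labelled Cry/Per_KO, 932 and 982 in the pair labelled Cry/Per/Nr1d_KO, and 2.53 and 0 in Per/Nr1d_KO. The nearest to Tbx5 were Hoxb13 (RMS 0.25), Zic1 (RMS 0.27) and the imprinted RNA H19 (RMS 0.34). Hoxb13, a factor of the caudal end of the body axis, had 365 and 364 normalized counts in the pair labelled Cry/Per/Nr1d_KO and at most 1.11 elsewhere, and Zic1, a zinc finger factor, had 416 and 473 there and at most 1.11 elsewhere. These are descriptions over 6 libraries of 3 lines, in which any genes restricted to the same line come out alike.

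The other genes of the limb programme were taken from lists of signals, of mesenchymal factors and of Hox genes, 75 genes in all, of which 41 were tested. Between the pair labelled Cry/Per_KO and the pair labelled Cry/Per/Nr1d_KO, 18 of the 41 (43.9%) were called, 1 higher and 17 lower, against 16.8% of all genes. Between Per/Nr1d_KO and the pair labelled Cry/Per/Nr1d_KO, 31 (75.6%) were called, 16 higher and 15 lower, against 20.7%. Against the pair labelled Cry/Per_KO, 32 (78.0%) were called in Per/Nr1d_KO, 19 higher and 13 lower, against 29.0%. The median absolute log2 fold change of the 41 genes was 0.77, 2.23 and 2.50 in these comparisons, beside 0.34, 0.34 and 0.46 over all genes tested. The called genes include the 8 tested Hox genes in each comparison. Several of the 41, such as Sall1, Irx3, Hoxa13 and Hoxd12, passed the filter only through Per/Nr1d_KO, where they were high, and so had to differ. The shares are therefore a description, and no set test was run on these lists.

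Among the signals of limb initiation and outgrowth, 14 of 28 genes were tested. In Per/Nr1d_KO, 10 (71.4%) were called against either pair, beside 20.7% and 29.0% of all genes. Wnt5a, a signal that drives growth along the limb, had 3964 and 4177 normalized counts in the pair labelled Cry/Per_KO, 7199 and 7149 in the pair labelled Cry/Per/Nr1d_KO, and 5.07 and 0.79 in Per/Nr1d_KO. Grem1, the BMP antagonist that keeps the outgrowth loop running, fell in Per/Nr1d_KO to 112 ± 23.9 normalized counts (SD, n = 2), from 29184 ± 349 in the pair labelled Cry/Per/Nr1d_KO and 26148 ± 289 in the pair labelled Cry/Per_KO. In the same line Rspo2, an enhancer of Wnt signalling needed in the limb, rose to 5001 ± 0.456 normalized counts (SD, n = 2), and its log2 fold change was 2.96 (SE 0.063) against the pair labelled Cry/Per/Nr1d_KO, at 644 ± 11.5, and 3.37 (SE 0.065) against the pair labelled Cry/Per_KO, at 482 ± 25.9. The adjusted p values of Rspo2 were 1.6e-15 and 4.6e-16 by the quasi-likelihood test of edgeR after Benjamini-Hochberg adjustment.

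Ptch1, the receptor and target of hedgehog signals, rose in Per/Nr1d_KO to 7404 ± 277 normalized counts from 1457 ± 24.4 (labelled Cry/Per/Nr1d_KO) and 1725 ± 11.9 (labelled Cry/Per_KO), and Gli2, a transcription factor of that pathway, to 3034 ± 200 from 664 ± 42.5 and 534 ± 36.9. Other genes of the pathway did not rise with them. Gli1, a hedgehog target, was called lower in Per/Nr1d_KO (77.4 ± 3.46) than in the pair labelled Cry/Per/Nr1d_KO (222 ± 13.9), with 79.1 ± 15.9 in the pair labelled Cry/Per_KO. Gli3, named after its values were seen, had 8641 ± 196, 8611 ± 153 and 11968 ± 236 in this order and was called in no comparison. Shh itself was at 0 or 1 count in every library. Between the pair labelled Cry/Per_KO and the pair labelled Cry/Per/Nr1d_KO, 6 signals (42.9%) were called, beside 16.8% of all genes. Nog, a secreted BMP antagonist, was higher in the former (386 ± 0.918 against 47.1 ± 8.81 normalized counts), and Cyp26b1, which removes retinoic acid from the limb end (145 ± 9.92 against 952 ± 42.6), and Fgfr2, a receptor of limb FGF signals (953 ± 41.8 against 3299 ± 64.1), were lower. Fgf10, named after its values were seen because TBX5 and TBX4 are known to act on it, had 601 ± 3.02 normalized counts in the pair labelled Cry/Per_KO, 729 ± 26.3 in the pair labelled Cry/Per/Nr1d_KO and 144 ± 15.6 in Per/Nr1d_KO (log2 fold change -2.36 and -2.08 in the last against the second and the first line, adjusted p = 1.2e-11 and 5.2e-11 by the quasi-likelihood test of edgeR after Benjamini-Hochberg adjustment). It was called lower in Per/Nr1d_KO, and its change between the other two lines (-0.28) was inside the fold limit.

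Of the 31 factors of limb mesenchyme, 19 were tested, and 4 (21.1%), 13 (68.4%) and 14 (73.7%) were called in the 3 comparisons, beside 16.8%, 20.7% and 29.0% of all genes, so the first share was near that of all genes. Set against the floor in the pair labelled Cry/Per_KO, Hand2 was at least 344-fold higher in Per/Nr1d_KO and at least 133-fold higher in the remaining pair. Irx3, a factor of the proximal and anterior bud, went from 4.12 ± 1.11 (labelled Cry/Per_KO) over 38.0 ± 12.3 (labelled Cry/Per/Nr1d_KO) to 627 ± 43.4 normalized counts in Per/Nr1d_KO. Alx4, which limits the hedgehog zone at the anterior margin, held 7674 and 7743 (labelled Cry/Per_KO), 8183 and 8223 (labelled Cry/Per/Nr1d_KO), then 2.53 and 0 normalized counts (Per/Nr1d_KO). En1, a factor of the ventral ectoderm that is also made by dermal fibroblasts, fell in Per/Nr1d_KO to 24.5 ± 1.19 normalized counts from 716 ± 34.7 (labelled Cry/Per/Nr1d_KO) and 712 ± 23.9 (labelled Cry/Per_KO). Lhx2 likewise fell in Per/Nr1d_KO, to 6.65 ± 4.94 from 400.3 ± 35.3 and 130 ± 22.4 in this order.

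Of the 16 Hox genes of the limb list, 8 were tested, all from the posterior Hoxa and Hoxd clusters, and each was called in every comparison, lowest in the pair labelled Cry/Per_KO and highest in Per/Nr1d_KO. Most of them reached the mean of 100 normalized counts only through Per/Nr1d_KO, so the filter favoured that direction and nothing is read from the count. Hoxd12 between the first 2 pairs rested on 4.44 and 5.55 normalized counts against 0. Of the 8 genes that were not tested, the 7 Hoxc genes did not share this order and were near 0 outside the pair labelled Cry/Per/Nr1d_KO, the line in which Tbx5 was found. Hoxc8 had 146 and 164 normalized counts there and 0 in the other 4 libraries, Hoxc10 had 149 and 162 there and at most 0.98 elsewhere, and Hoxc9 had 154 and 175 there and at most 5.56 elsewhere. Hoxd9, the last of the 8, had the order of the tested genes, with 62.1 and 60.0 normalized counts in that pair, 195 and 172 in Per/Nr1d_KO and 0 in the pair labelled Cry/Per_KO. These untested genes were named after their values were seen. Hoxa11, a gene of the middle limb segment, had 0 counts in both libraries of the pair labelled Cry/Per_KO, 218 and 214 normalized counts in the pair labelled Cry/Per/Nr1d_KO, and 1856 and 1782 in Per/Nr1d_KO. Hoxd13, which patterns the digits, had 2.23 and 1.96, 1122 and 1198, and 13199.7 and 12547 in this order.

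In the pair labelled Cry/Per/Nr1d_KO the 8 tested Hox genes stood at 1.42% to 11.9% of their mean level in Per/Nr1d_KO, with a median of 9.33%, and Pitx1 stood at 26.7% and Hand2 at 38.6%. Sall1, a zinc finger factor of limb and kidney with 3866 and 3542 normalized counts in Per/Nr1d_KO, had 0 counts in both libraries of the pair labelled Cry/Per/Nr1d_KO. Mab21l2, of the trunk list, had 1537 and 1463 normalized counts in Per/Nr1d_KO and 1.78 and 1.11 in those libraries. Most of these genes reached the filter only through Per/Nr1d_KO, so these shares are a description. What sets them was not tested.

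Of 11 other T-box genes, 2 were tested. Tbx20, a heart and lateral mesoderm gene close to Tbx18 in sequence, had 1309 ± 10.3 normalized counts in the pair labelled Cry/Per_KO, 680 ± 74.4 in the pair labelled Cry/Per/Nr1d_KO and 4.82 ± 3.23 in Per/Nr1d_KO, and was called in every comparison. Mga, a MAX partner with a T-box domain that was named after its values were seen, was called in none, with log2 fold changes of -0.12, 0.20 and 0.32. Of 12 other genes with a paired-type homeodomain, 5 were tested. All 5 were called in Per/Nr1d_KO against either pair, beside 20.7% and 29.0% of all genes. Gsc passed the filter only through Per/Nr1d_KO, and Alx1 and Alx4 only through the other lines, so these genes had to differ. The share is therefore a description. Alx1, a factor of facial mesenchyme, stood at 5352 and 5080 in the first line, at 6619 and 6858 in the second and at 2.53 and 0 normalized counts in Per/Nr1d_KO, and Gsc, a factor of the early organizer and of the limb and face, rose from 3.34 and 6.87 over 30.2 and 38.9 to 1406 and 1273. Alx4 stands in this list as well as in the mesenchymal one.

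Of 14 genes of the limb skeleton, 8 were tested. Col2a1, the collagen of cartilage, rose from 14.5 ± 3.15 normalized counts in the pair labelled Cry/Per_KO over 2643 ± 306 in the pair labelled Cry/Per/Nr1d_KO to 58214 ± 125 in Per/Nr1d_KO. Sox9, the master regulator of cartilage, was called lower in Per/Nr1d_KO (615 ± 73.6) than in the pair labelled Cry/Per/Nr1d_KO (1778 ± 175) and Cry/Per_KO (2010 ± 92.2). Acan, the proteoglycan of cartilage, was highest in the pair labelled Cry/Per/Nr1d_KO (299.5 ± 18.4), with 87.5 ± 0.0890 in Per/Nr1d_KO and 0.49 ± 0.69 in the pair labelled Cry/Per_KO. Cartilage genes thus did not move together.

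For comparison with other positions, 11 of 20 trunk mesoderm genes and 8 of 13 head mesenchyme genes were tested. Of the trunk genes, 5 (45.5%), 9 (81.8%) and 9 (81.8%) were called in the 3 comparisons, in both directions each time, beside 16.8%, 20.7% and 29.0% of all genes. Mab21l2 of this list passed the filter only through Per/Nr1d_KO, and Pax3 only through the other lines. Both thus had to differ in the comparisons with Per/Nr1d_KO. These shares are therefore a description. Pax3, a factor of the early somite and neural crest, stood at 5163 and 5321 in the first line, at 4297 and 4553 in the second and at 2.53 and 1.58 normalized counts in Per/Nr1d_KO, while Pax9, of the sclerotome and pharyngeal pouches, was highest in Per/Nr1d_KO (2902 ± 215 against 144 ± 19.9 in the pair labelled Cry/Per/Nr1d_KO and 652 ± 42.2 in the pair labelled Cry/Per_KO). Of the head genes, 0 of 8 were called in the pair labelled Cry/Per_KO against the one labelled Cry/Per/Nr1d_KO by edgeR, although 6 had an adjusted p under 0.05 with a change inside the fold limit. In Per/Nr1d_KO, 7 (87.5%) were called against the pair labelled Cry/Per/Nr1d_KO and 5 (62.5%) against the pair labelled Cry/Per_KO, all lower, where 9.35% and 13.8% of all genes were called lower. The median log2 fold change of these 8 genes was -3.88 and -3.91 there, beside 0.011 and 0.035 over all genes tested. Tfap2b, a neural crest factor, had 15563 and 15256 normalized counts in the pair labelled Cry/Per_KO, 10999.6 and 12196 in the pair labelled Cry/Per/Nr1d_KO, and 3.80 and 0 in Per/Nr1d_KO, and like Shox2 was close to silent in that line only. It passed the filter only through the lines where it was high. The shares and medians of the head list are therefore a description as well.

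**Figure D4:**
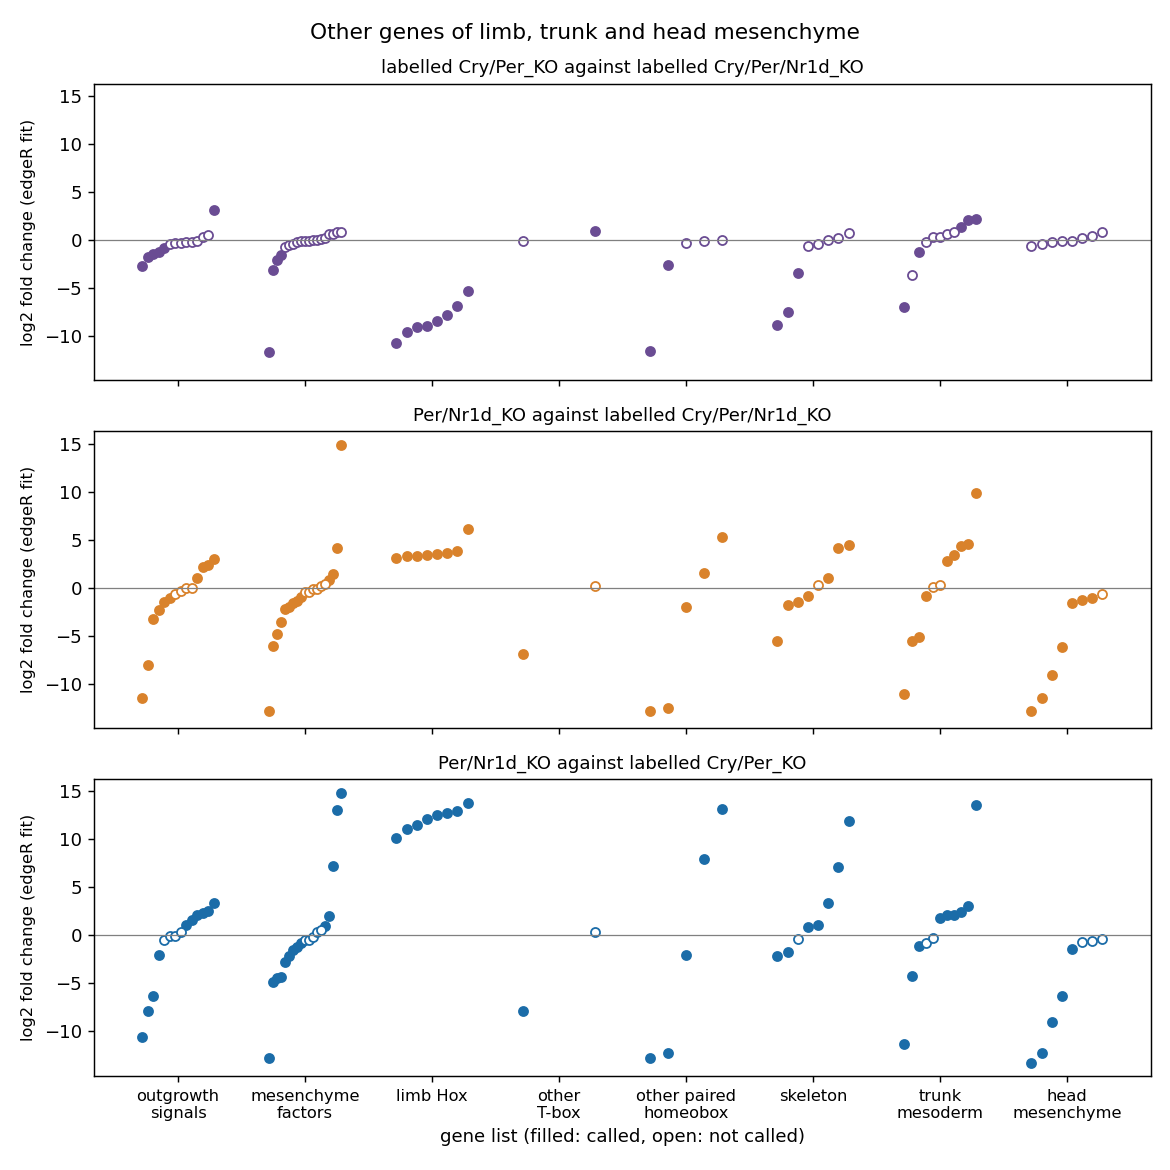
Log2 fold change from the edgeR fit of each tested gene of 8 lists (columns) in the 3 comparisons (panels), filled where called and open where not. The 8 tested of 16 Hox genes in the limb list are filled in every panel, and 0 of the 8 head genes are filled in the first panel against 7 and 5 below zero in the others. Values beyond about 10 in either direction come from genes at or near 0 counts in a line and depend on the prior count. Smaller values of such genes depend on it as well. In the first panel 5 of the 8 Hox genes have a line at 0 counts. Their list median of -8.75 became -5.52 with such genes set against the floor of 3 counts.

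The fibroblast label was checked on 12 markers. Col1a1, Col1a2, Col3a1, Col5a1, Fn1, Vim, Pdgfra, Pdgfrb and S100a4 reached a mean of 100 normalized counts, while Thy1 and Lum were near or at 0 and Dcn had at most 139 normalized counts. The summed level of the 12 markers was between 892322 and 915042 normalized counts in the pair labelled Cry/Per_KO, 984534 and 1036100 in the pair labelled Cry/Per/Nr1d_KO, and 1782350 and 1801450 in Per/Nr1d_KO. The markers did not move as one. Col1a1, Col1a2, Col3a1, Col5a1 and Fn1 were highest in Per/Nr1d_KO, and Vim, Pdgfra, Pdgfrb and S100a4 were lowest there, with Pdgfra at 4140 and 4148 normalized counts against at least 9673 in the other libraries. The 6 endothelial markers summed to at most 138 normalized counts, the 6 muscle markers to at most 113 and the 4 pluripotency markers to at most 43.2 in any library, with Tie1, Zfp42 and Dppa3 at 0 in all. Of the 8 epithelial markers, Krt19 alone reached a mean of 100 normalized counts, and their sum was 806 to 817 in Per/Nr1d_KO and at most 111 elsewhere. Cdh1 was also higher in Per/Nr1d_KO (100.1 and 110.5 normalized counts) than elsewhere (at most 27.8), while Krt5, Krt8, Krt14, Krt18 and Cldn4 had at most 6.34 in any library. Of the 5 blood markers in the counts, Cd68 alone reached that mean, their sum was 181 to 326, and Cd3e was at 0. Of the 6 neural markers, Tubb3 and Map2 reached it, and the sum of the 6 was 1120 to 1200 in Per/Nr1d_KO and 5393 to 5863 in the other lines. Map2 carried this difference (333 and 355 in Per/Nr1d_KO against at least 3548 elsewhere). Tubb3 was higher in Per/Nr1d_KO (676 and 664) than in the pair labelled Cry/Per_KO (359 and 356) and highest in the remaining pair, and Sox2 was highest in Per/Nr1d_KO (161 and 113 against at most 55.0), while Sox10 and Rbfox3 were near 0. The part of the epithelial and neural markers in the members' differences was not tested.

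The nearest 3 protein-coding genes tested on either side of each member gave 48 distinct genes besides the members themselves. Of these, 12 (25.0%), 14 (29.2%) and 19 (39.6%) were called in the 3 comparisons, beside 16.8%, 20.7% and 29.0% of all genes. Around Tbx15, 4 of the 6 neighbours, Wars2, Zfp697, Phgdh and Wdr3, were called lower in the pair labelled Cry/Per_KO than in the pair labelled Cry/Per/Nr1d_KO, with log2 fold changes from -1.48 to -0.81, beside a log2 ratio of -0.78 for Tbx15. In Per/Nr1d_KO against the pair labelled Cry/Per/Nr1d_KO, only Tent5c of these 6 neighbours was called (1.70), while Tbx15 stood at 2.78. Against the pair labelled Cry/Per_KO, 5 of the 6 were called higher in Per/Nr1d_KO. The 6 log2 fold changes lay between 0.50 and 2.11 there, beside a log2 ratio of 3.56 for Tbx15.

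Around Pitx1, the nearest gene on each side, Pcbd2 and Macroh2a1, was called in no comparison (both named after their values were seen), with log2 fold changes between -0.02 and 0.48. The called neighbours took different orders. B230219D22Rik, 122 kb away, had 22089 and 23066 normalized counts in the pair labelled Cry/Per_KO, where Pitx1 had 0, then 11271 and 12066, and 11452 and 10984 in Per/Nr1d_KO. Fbxl21, 686 kb away, was likewise highest in the pair labelled Cry/Per_KO (154 and 200.3, against 32.0 and 38.9, and 74.8 and 104 in Per/Nr1d_KO). Tgfbi, 773 kb away and encoding a matrix protein, had the same order of lines as Pitx1, with 101 and 87.4 normalized counts in the pair labelled Cry/Per_KO, 1053 and 914 in the pair labelled Cry/Per/Nr1d_KO, and 8826 and 8383 in Per/Nr1d_KO. Around Shox2, Mlf1 on one side was called lower in Per/Nr1d_KO (-1.75 and -1.57 against the pair labelled Cry/Per/Nr1d_KO and the one labelled Cry/Per_KO). Lxn on that side was called lower too (-1.29 and -0.98), and Ptx3 on the other side was called higher (1.98 and 2.58). These changes were far smaller than that of Shox2. Larger ones stood beside other members. In the same comparisons Prss35, 944 kb from Tbx18, was called higher (5.20 and 6.90), and Ptges, 8.22 kb from Prrx2, lower (-4.28 and -2.43). Around Tbx2 and Tbx4, which share their 6 neighbours, none was called in any comparison by edgeR. At an adjusted p under 0.05 alone, several of these 6 differed, with log2 fold changes between -0.65 and 0.59.

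**Figure D5:**
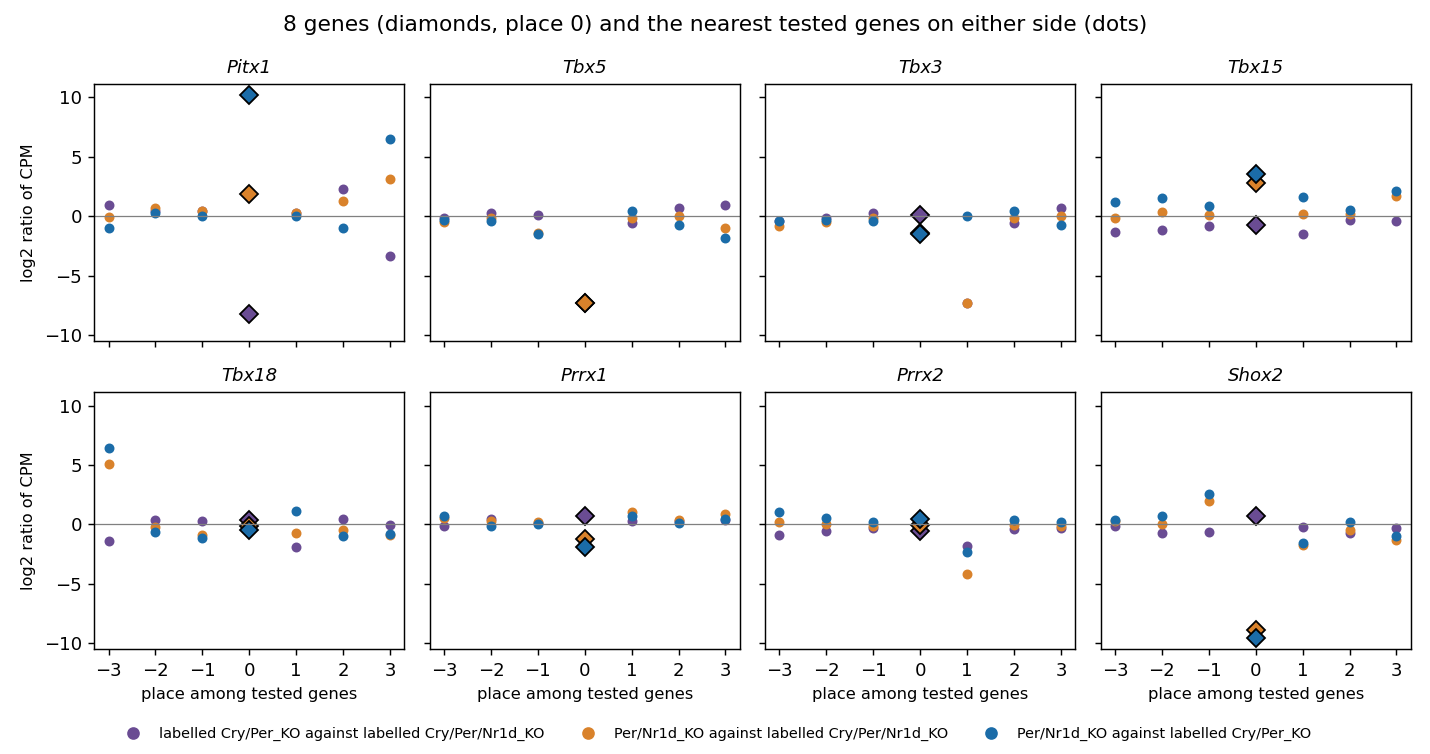
Log2 ratio of CPM (prior count 2) for the 8 members that were tested (diamonds, place 0) and for the nearest 3 tested protein-coding genes on either side (dots), by place along the chromosome, in the 3 comparisons. In Per/Nr1d_KO against the pair labelled Cry/Per_KO, Shox2 stands at -9.52 and its neighbours between -1.57 and 2.58, and some diamonds of the same height cover each other.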

How the data were processed

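RNA was measured by stranded poly-A RNA-seq in 6 libraries, 2 RNA preparations of each of 3 MEF lines. The authors aligned reads to mm10 with STAR, made the deposited raw counts per gene with featureCounts and compared lines with DESeq2 1.22.2; settings for strand and shared reads are not given in the sources used here. Deposited comparison tables (mean, log2 fold change, standard error and p) were not used. Of 27179 Entrez identifiers, 25275 matched a symbol. Pairs follow the genotype labels, which differ from the count columns for 4 libraries.

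Counts were scaled by TMM, genes whose mean reached 100 normalized counts were fitted in edgeR 4.0.16 (R 4.3.3; limma 3.58.1) with all 6 libraries and 3 groups, and a gene was called at an adjusted p below 0.05 beyond a log2 fold change of 0.81. The script was tested on simulated data. Descriptive tables used Python 3.11.15 and pandas 2.3.3. Counting intervals are exact binomial at 95%. The members and gene lists were chosen with earlier results of these data known. Named were all members, up to 3 called genes per list, comparison and direction, taken by size of change, the 3 nearest profiles of 3 members, and called neighbours; genes outside this rule are marked. Not every gene that the rule names is reported here. Alternatives were DESeq2 1.42.0, filters, the fold limit, prior count, a replicate block, chromosome medians and leaving out each library.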

Additional observations from a re-analysis of the deposited data

How the results depend on the processing

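Lowering the expression filter to a mean of 10 raised the genes called to 3311 for the pair labelled Cry/Per_KO against the one labelled Cry/Per/Nr1d_KO, and to 3912 for Per/Nr1d_KO against the latter. With no filter the counts were 3808, 4576 and, against the pair labelled Cry/Per_KO, 5590, and with no fold limit 9118, 9042 and 9793. Limb list genes called in the first comparison became 35, 39 and 36 under these settings, and 53 in the second with no filter; more genes could then be called by construction. Leaving out 1 library gave 1962 to 2025, 2414 to 2487 and 3377 to 3476 genes, and 17 to 19, 30 to 32 and 31 to 33 limb list genes. A replicate block gave 2002, 2468 and 3457 genes (limb lists 18, 31 and 32). Same-numbered libraries deviated with correlations of -0.21, -0.024 and -0.10, all negative. Effects of preparation shared in a way other than by replicate number were not tested. DESeq2 gave 2004, 2463 and 3462. Of the member ratios under all settings, 216 moved by less than the replicate spread and 36 by more. Signs changed for Tbx18 (-0.028, 0.32 and 0.35) and Prrx2 (0.041 in the second comparison) with chromosome medians subtracted, and for Prrx2 (0.0038) without replicate 1 of the pair labelled Cry/Per/Nr1d_KO. With 2 preparations of 1 line each, line and genotype cannot be told apart, and Tbx4, Tbx2 and, in Per/Nr1d_KO, Shox2 rest on few counts.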
